A study of Mus musculus with 3 samples.

Results

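The genes described here encode the 4 mouse Notch receptors (Notch1, Notch2, Notch3 and Notch4), the 2 Jagged ligands Jag1 and Jag2, the DNA-binding protein Rbpj and the 3 Mastermind-like coactivators Maml1, Maml2 and Maml3. They were chosen by name, 10 of 21631 protein-coding genes on chromosomes 1 to 19 and X. Each is described by the peaks of histone H3 monomethylated at lysine 4 (H3K4me1) that touch its gene body or the 10 kb on either side (its window, mm10). The mark was mapped by ChIP-seq (immunoprecipitation of chromatin, then sequencing), and the material was primary adipocytes from C57BL/6J males. The wild-type library (WT) came from control mice, and the other library came from mice that lack LONP1, a protease of the mitochondrial matrix, in adipocytes only (AKO). A single input library without antibody was the background for both peak lists. The age of the mice, the fat depot, the number of mice per library and the Cre driver of the knockout are not given in the sources used here.

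Notch receptors are cell surface proteins that are cut when they bind a ligand, such as a Jagged protein, on a neighbouring cell. The freed intracellular domain enters the nucleus, joins RBPJ on DNA and recruits a Mastermind-like protein, which switches target genes on. In mouse adipose tissue Notch signalling is known as a brake on the beige, heat-producing programme. H3K4me1 marks enhancers and the flanks of active promoters.

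There was 1 library per genotype, so no replicate spread, p-value or standard error exists for genotype, and each difference below is between these 2 libraries. The libraries held 15015805 (WT) and 14733950 (AKO) tags after duplicates were removed. A gene is called lower in AKO when the covered length is more than 2 times as long in WT with a gap of 2 kb or more, and higher when the same holds the other way round. Pileup is the authors' count of fragments over a peak's summit, scaled in both libraries to the tag number of the input. The number of fragments is the same value without the scaling, and its exact Poisson 95% intervals cover counting error only. A peak has a partner when it shares 1 bp or more with any peak called in the other library. In such material, fewer marked cells and less of the mark per cell cannot be told apart. Of the adipocyte markers, 8 of 8 carried a peak in each library (33.1 kb in WT and 23.8 kb in AKO in sum). Of the endothelial markers, 8 of 8 did so too, with 28.8 and 13.7 kb, as did 7 of 7 markers of pericytes and smooth muscle, with 56.2 and 40.8 kb, and 5 of 5 progenitor markers, with 23.4 and 15.8 kb. Among the 5 macrophage markers Ptprc and Adgre1 had no peak in either library, and the sums were 17.3 and 10.6 kb. Of all 21631 protein-coding genes 14162 carried a peak in WT and 13422 in AKO. Their AKO to WT ratio of summed length was 0.724, against 0.720 for the adipocyte markers and 0.474 for the endothelial ones. It was 0.725 for pericytes and smooth muscle, 0.676 for progenitors and 0.614 for macrophages.

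Promoter sequences are shown for 4 members that differ in their mark at the start site. They are RefSeq sequences (GRCm38.p6, the assembly of mm10) of the 250 bases before the start site, read 5′ to 3′ on the strand of the gene. Capitals mark the letters TGGGAA, the core recognised by RBPJ, or their reverse complement TTCCCA. The Notch3 promoter lay wholly under a peak in WT, 250 of 250 bases, and under none in AKO. The Notch4 promoter lay under a peak in both libraries (210 and 240 bases). The Notch1 promoter lay in the gap between peaks in both libraries. The Rbpj promoter, far from any peak in either library, is shown because it holds the core letters on each strand.
Notch3, chr17:32166891-32167140, minus strand: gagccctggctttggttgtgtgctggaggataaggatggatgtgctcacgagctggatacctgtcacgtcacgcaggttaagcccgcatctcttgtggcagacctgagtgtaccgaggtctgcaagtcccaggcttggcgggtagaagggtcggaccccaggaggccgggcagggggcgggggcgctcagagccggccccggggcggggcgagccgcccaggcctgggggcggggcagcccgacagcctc
Notch4, chr17:34564045-34564294, plus strand: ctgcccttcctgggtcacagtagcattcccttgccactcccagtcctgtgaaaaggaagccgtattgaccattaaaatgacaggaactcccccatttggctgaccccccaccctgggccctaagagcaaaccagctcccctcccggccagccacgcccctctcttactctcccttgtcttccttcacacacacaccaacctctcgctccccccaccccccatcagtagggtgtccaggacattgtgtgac
Notch1, chr2:26503823-26504072, minus strand: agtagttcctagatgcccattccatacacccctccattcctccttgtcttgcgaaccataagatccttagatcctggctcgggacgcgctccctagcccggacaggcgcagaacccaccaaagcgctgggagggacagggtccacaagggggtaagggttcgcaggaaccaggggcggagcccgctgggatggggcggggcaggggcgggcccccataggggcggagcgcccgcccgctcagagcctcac
Rbpj, chr5:53590096-53590345, plus strand: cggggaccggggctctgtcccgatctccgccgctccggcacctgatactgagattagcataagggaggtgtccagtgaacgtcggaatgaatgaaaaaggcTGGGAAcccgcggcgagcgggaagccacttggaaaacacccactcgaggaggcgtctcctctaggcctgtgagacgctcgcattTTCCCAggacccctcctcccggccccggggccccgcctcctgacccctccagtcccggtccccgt

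All 10 members matched the promoter table, with 12 promoters of 300 bases (250 before and 50 after the start site). The letters TGGGAA, searched on both strands, were in 4 of the 12 promoters, those of Maml3, the second Maml2 promoter and both overlapping Rbpj promoters. They were in 25.6% of all 32851 promoters of that length. The longer form GTGGGAA, which contains the core, was in none of the 12 and in 6.38% of all promoters. The palindromic motif of EBF factors was in none of the 12 and in 0.904% of all, and the direct repeat of AGGTCA with 1 base between was in none and in 0.0396%.

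The member windows held 167 peaks in WT and 177 in AKO, which covered 137 kb and 116 kb. The receptors and ligands had less of the mark in AKO, Maml2 had more, Maml1 had a like amount and Rbpj went from 1 peak to 6. Covered length was less in AKO for 7 members and more for 3. Among the protein-coding genes as a whole it was less for 54.1% and more for 14.9%, and the rest had no peak in either library or, at 2 genes, equal lengths. Of the 8217 genes with at least 2 kb in WT, 7418 had less in AKO, against 7 of the 9 members with that length. The median difference (AKO minus WT) was −2.84 kb over the members, −0.18 kb over all genes and −1.69 kb over the genes with at least 2 kb in WT. The AKO to WT ratio of summed length was 0.846 for the members, 0.711 without Maml2 and 0.724 over all genes. When each list was cut to its strongest peaks of equal total length, the ratio for the members turned to 1.31. That cut was stricter in WT than in AKO, and it set the total length of both lists equal. The 0.724 over all genes is thus no background for it, and its ratio over all genes was not computed. The cut left 24 WT and 55 AKO peaks in the member windows, where a −log10 q of at least 5 in both left 85 and 56. The rule of size called Notch1 lower and Rbpj higher, 1 member each, while over all genes it called 5.35% lower and 0.227% higher.

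**Figure D1:**
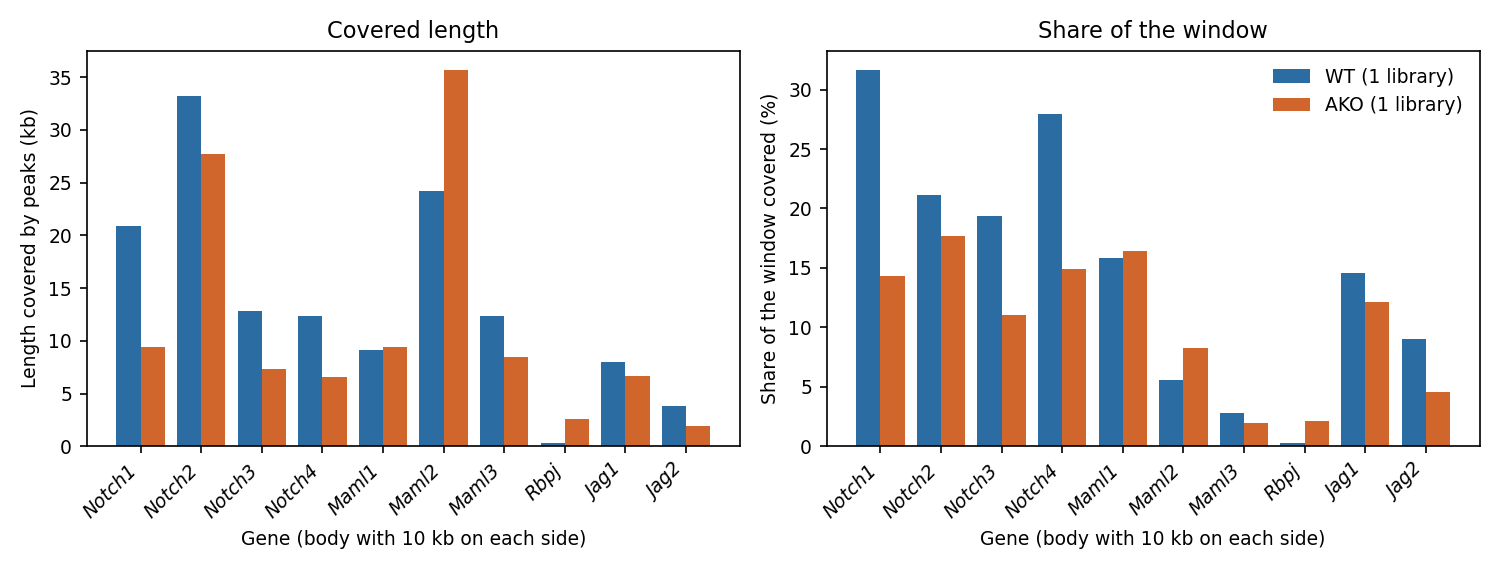
Length covered by H3K4me1 peaks (left, kb) and share of the window covered (right, percent) for the 10 members in the WT and the AKO library, 1 library each, so no error bars exist. All 4 receptors and both Jagged genes have the shorter AKO bar, and Maml2 has 24.2 kb in WT and 35.7 kb in AKO.

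Since windows differ in length, levels of different genes were compared as the percent of the window covered. In WT the order was Notch1 (31.7%), Notch4 (27.9%), Notch2 (21.2%), Notch3 (19.4%), Maml1 (15.9%), Jag1 (14.6%), Jag2 (8.99%), Maml2 (5.59%), Maml3 (2.81%) and Rbpj (0.261%). The 4 receptors thus held the top 4 places when whole windows, flanks included, were ranked. These places depend in part on the flanks. Peaks over neighbouring genes made up 7.96 of the 12.4 kb in the Notch4 window in WT. With gene bodies alone, Notch3 had less covered length in WT than Jag1 and Maml1, whose gene bodies are shorter. Shares of the gene body alone were not ranked. In AKO the order was Notch2 (17.7%), Maml1 (16.4%), Notch4 (14.9%), Notch1 (14.3%), Jag1 (12.1%), Notch3 (11.02%), Maml2 (8.25%), Jag2 (4.57%), Rbpj (2.09%) and Maml3 (1.94%). With 1 library each, the spread that would separate neighbours in these orders is unknown.

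Among the receptors, which receive the signal, all 4 had less covered length in AKO, 79.2 kb in sum in WT and 51.1 kb in AKO. Each had at least 2 kb in WT, and of the 8217 such genes 7418 had less in AKO. The summed ratio was 0.645 for the receptors and 0.724 over all genes. Of the receptors' 75 WT peaks 19 had no AKO partner, but only 2 of their 64 AKO peaks lacked a WT partner. The share of peaks without a partner was 25.3% in WT (exact binomial 95% interval 15.99 to 36.7, counting error only) and 3.13% in AKO (0.381 to 10.8). Over all peaks the shares were 39.6% and 23.8%. The AKO pileup was the lower in 38 of the 51 regions of the receptors marked in both libraries, against 71.8% of all 41022 shared regions.

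Notch1 (chromosome 2, 26457902 to 26503822, minus strand) encodes a receptor used by many cell types, endothelial cells among them. Its covered length was 20.9 kb from 14 peaks in WT and 9.45 kb from 10 peaks in AKO. The WT to AKO ratio of 2.21 made it the only member called lower, and 91 of the 21631 genes, Notch1 included, had a loss in kb at least as large. With lists of equal total length, a cut that was stricter in WT, the difference shrank to −2.39 kb (9.08 and 6.69 kb). Notch1 was then no longer called. When −log10 q had to reach 5, Notch3, Notch4 and Maml3 were called lower beside it. The share of all genes called under that limit was not computed. The mark was densest in the 5′ part of the gene, 2 to 20 kb after the start site (limits chosen after the values were seen). There 7 WT peaks had a summed width of 14.2 kb and 5 AKO peaks 6.08 kb. The tallest WT peak (26486001 to 26489936, 3936 bp) had a pileup of 28.6 from 45 fragments (32.8 to 60.2). Its AKO partner (26486178 to 26488517, 2340 bp) had a pileup of 19.4. The next WT peak in height (26491908 to 26495609, 3702 bp, pileup 26.04) overlapped 2 AKO peaks. The taller of these, the tallest AKO peak at Notch1 (26492856 to 26494433, 1578 bp), had a pileup of 21.4 from 33 fragments (22.7 to 46.3).

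All 10 AKO peaks at Notch1 had a WT partner, and in the median the AKO peaks were narrower. The median width was 1216 bp in WT and 685.5 bp in AKO. In all 8 shared regions the AKO pileup was the lower, with AKO to WT ratios from 0.576 to 0.878. The 5 WT peaks without a partner had 16 to 21 fragments, where the median peak of the whole WT list had 19. They lay at 26451693 to 26451964, 26459535 to 26459906, 26485312 to 26485583, 26497858 to 26499064 and 26499266 to 26501241. The strongest of them by −log10 q (26451693 to 26451964) reached 4.42. No peak covered the start site at 26503822, and the nearest lay 1149 bp away in WT and 1393 bp away in AKO. On the upstream side a WT peak of 2223 bp (26505707 to 26507929, pileup 19.1) faced an AKO peak of 559 bp (26505811 to 26506369, pileup 11.7). A peak at the 3′ side of the window (26446805 to 26449340 in WT, pileup 22.9, and 26446820 to 26449214 in AKO, pileup 20.1) crossed the window's edge and was counted only inside it. The summed length of the endothelial markers also was shorter in AKO (ratio 0.474, against 0.724 over all genes). Its part in the Notch1 values was not tested.

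Notch2 (chromosome 3, 98013538 to 98150367, plus strand), the receptor gene with the longest body, carried the most peaks of the receptors, 43 in WT and 37 in AKO. They covered 33.2 kb and 27.8 kb, a ratio of 0.836 against 0.724 for the sum over all genes. Every peak lay in the gene body within the first 100 kb after the start site, and the rest of the gene had none in either library. Of the WT peaks 36 had a partner, and so did 36 of the AKO peaks. Height differed in both directions. The AKO pileup was lower in 20 and higher in 12 of the 32 shared regions, with a median ratio of 0.914. The tallest peak was at the same place in both libraries, 98029525 to 98030901 in WT (1377 bp, pileup 26.7, 42 fragments, 30.3 to 56.8) and 98029647 to 98030252 in AKO (606 bp, pileup 24.6, 38 fragments, 26.9 to 52.2). The widest AKO peak (98017599 to 98021081, 3483 bp) spanned 2 WT peaks, 98016776 to 98018987 and 98019153 to 98020998. The AKO pileup was farthest above WT at 98074830 to 98075536 (21 fragments), where the WT peak, 98074995 to 98075777, had 13 fragments. The WT peak without a partner with the highest −log10 q (5.25) lay at 98069185 to 98069482, and the single such AKO peak at 98028016 to 98028356, with 17 fragments. When both lists were cut to their strongest peaks of equal total length, the difference at Notch2 turned from −5.44 to 9.74 kb. That cut was stricter in WT.

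Notch3 (chromosome 17, 32120820 to 32166896, minus strand) encodes the receptor known from pericytes and vascular smooth muscle. Its window held 11 peaks and 12.8 kb in WT and 6 peaks and 7.28 kb in AKO, a ratio of 0.570. The 2 ends of the gene differed. From 1 kb before to 6 kb after the start site (limits chosen after the values were seen), WT had 5 peaks with a summed width of 4.2 kb, of which 4 had no partner, and AKO had 1 peak of 270 bp. From 40 to 60 kb, around and beyond the 3′ end, WT had 4 peaks of 8.73 kb and AKO 5 peaks of 8.34 kb, and all of these had partners.

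The tallest Notch3 peak in WT, 32161939 to 32163040 (1102 bp), had a pileup of 25.4 from 40 fragments (28.6 to 54.5), lay 4.17 kb inside the gene and had no AKO partner. It was the tallest unpartnered peak at any member. By −log10 q the strongest unpartnered Notch3 peak was 32165407 to 32166203 (797 bp, 30 fragments, −log10 q 12.9). The WT peak over the start site itself, 32166663 to 32167231 (569 bp, 22 fragments, pileup 13.97), covered the promoter printed above, and the nearest AKO peak was 2488 bp from the start site. That AKO peak, 32164133 to 32164402, had 14 fragments, where its WT partner (32163540 to 32164823) had 26. The tallest AKO peak lay beyond the 3′ end, 32115159 to 32118863 (3705 bp, 35 fragments, 24.4 to 48.7), on top of a WT peak of 3600 bp with 38 fragments. In all 5 shared regions the AKO pileup was the lower. The markers of pericytes and smooth muscle had a summed ratio of 0.725, against 0.724 over all genes. Most of that sum lay at Pdgfrb (27.8 and 19.99 kb) and Cspg4 (21.5 and 15.3 kb). Of the 7 markers 6 had less in AKO, with the lowest ratios at Rgs5 (0.285) and Myh11 (0.284). Acta2 had more (0.287 and 1.58 kb). The part of these markers in the Notch3 values was not tested.

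Notch4 (chromosome 17, 34564286 to 34588543, plus strand), a receptor known mainly from endothelium, had 12.4 kb from 7 peaks in WT and 6.59 kb from 11 peaks in AKO. In 3 of its 6 shared regions a single WT peak faced several AKO peaks. The WT peak at 34593425 to 34596362 (2938 bp, pileup 19.7) faced 3 AKO peaks, 34593895 to 34594449, 34594709 to 34595177 and 34595550 to 34595880. Much of the window's mark cannot be assigned to Notch4. Peaks over the neighbouring genes Gpsm3, Pbx2 and Ager made up 7.96 kb of it in WT and 3.66 kb in AKO, among them the tallest peak of each library (34588798 to 34591990 with 38 fragments in WT, 34590040 to 34591447 with 29 in AKO). At the start site of Notch4 itself both libraries had a peak, 34564085 to 34565293 in WT (1209 bp, pileup 20.96, 33 fragments) and 34564055 to 34564815 in AKO (761 bp, pileup 15.5, 24 fragments). A WT peak near the 3′ end of the gene body, 34585924 to 34587113 (1190 bp, 24 fragments, −log10 q 8.87), had no partner. The only AKO peak without one, 34588200 to 34588480, had 14 fragments. With the gene body alone the difference at Notch4 was −1.39 kb. The part of the shorter endothelial marker sum in AKO, given above, was not tested here either.

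**Figure D2:**
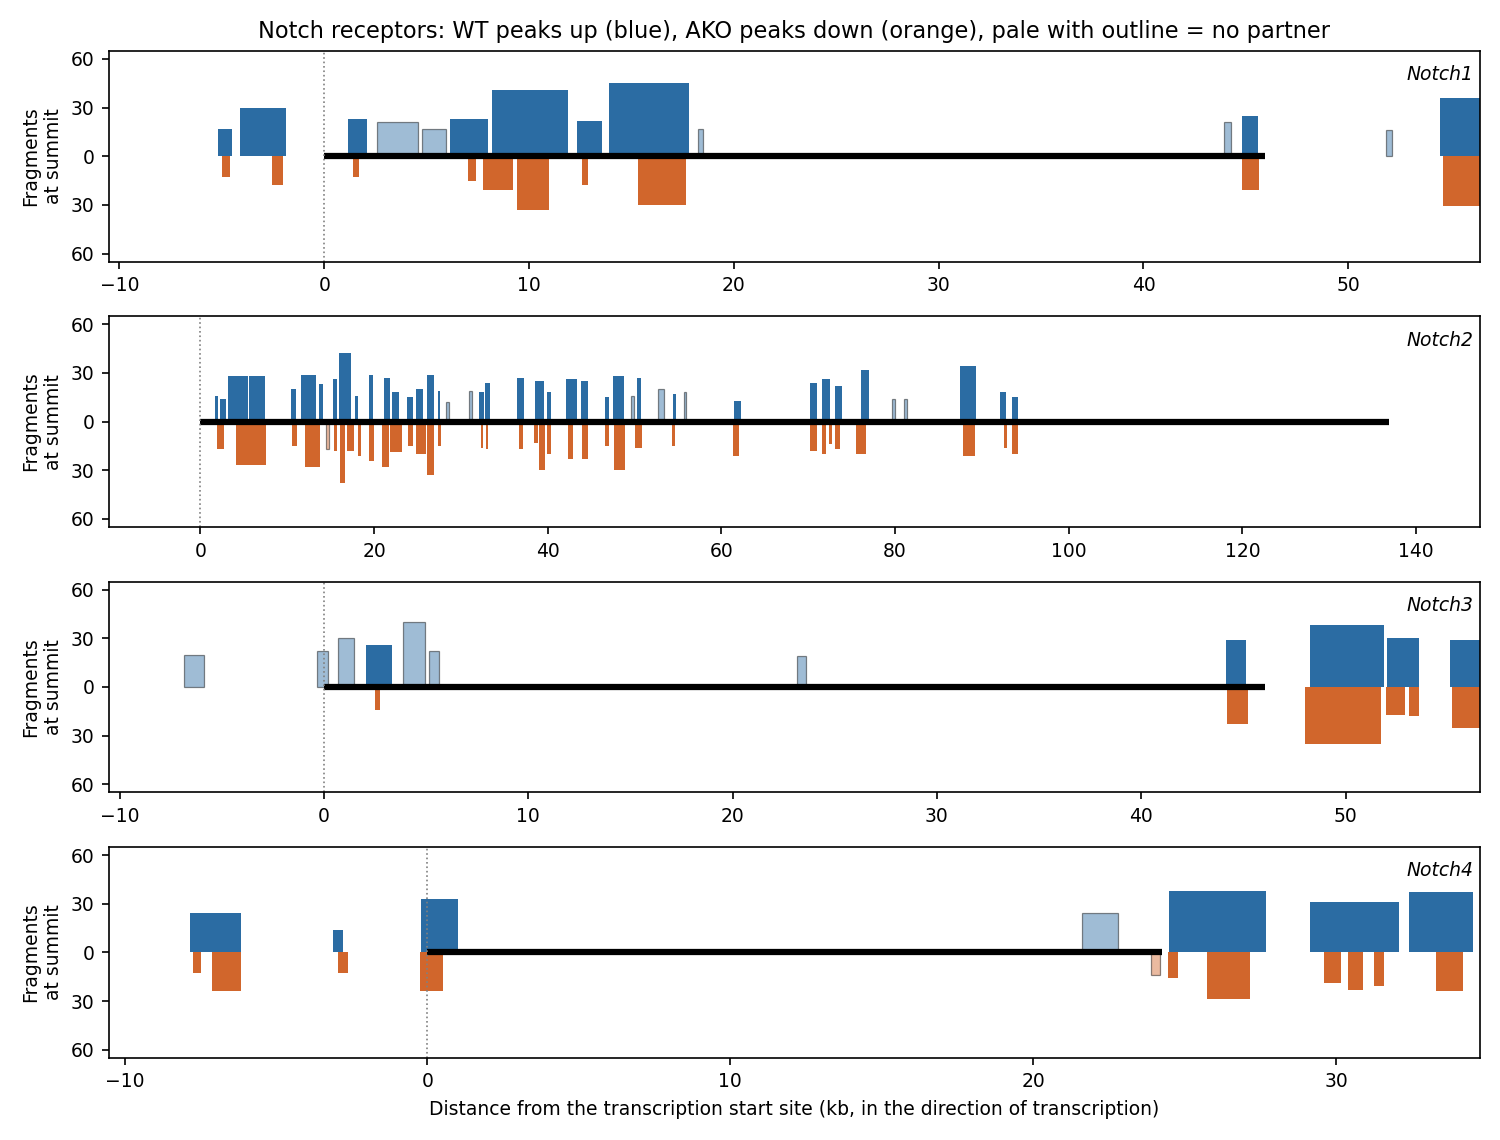
Peaks at the 4 receptor genes against the distance from the start site (kb, in the direction of transcription), with WT peaks above and AKO peaks below the gene (black bar). Bar width is peak width, bar height is the number of fragments at the summit, and pale outlined bars have no partner. At Notch3 4 of the 6 pale WT bars lie from 1 kb before to 6 kb after the start site, and at Notch2 no bar lies beyond 100 kb.

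The start sites of the members were compared as a group. A peak overlapped a promoter of 3 members in WT (Notch3, Notch4 and Jag2) and of 2 in AKO (Notch4 and Jag2, the latter by 1 base). Over the 17274 protein-coding genes in the promoter table the shares were 16.8% in WT and 9.44% in AKO, and 7.89% had a WT peak and no AKO peak there, as Notch3 did. Within 2 kb of the start site the covered length at Notch1 was 0.968 kb in the WT and 0.296 kb in the AKO library, and at Maml3 1.13 and 0.380 kb. Jag1, Maml1 and Rbpj had no peak within 2 kb of a start site in either library.

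The Jagged genes encode ligands that span the membrane of the signal-sending cell. Jag1 (chromosome 2, 137081451 to 137116520, minus strand) had 10 peaks and 8.03 kb in WT and 9 peaks and 6.67 kb in AKO. Its ratio was 0.831, against 0.724 for the sum over all genes. All 9 AKO peaks had a WT partner. The only WT peak without one, 137098452 to 137099028, was among the weakest, with 15 fragments. The tallest WT peak lay 6.54 kb inside the gene, at 137108556 to 137110487 (1932 bp, pileup 21.6, 34 fragments, 23.5 to 47.5), and faced 2 AKO peaks, the taller with 27 fragments. The tallest AKO peak, 137100826 to 137101720 (895 bp, pileup 18.8, 29 fragments), equalled its WT partner (137100363 to 137101622) in fragments. The peaks at the 3′ side, from 137078280 to 137081374, lay over the neighbouring gene Slx4ip and made up 1.86 kb in WT and 1.58 kb in AKO. With lists of equal total length, a cut that was stricter in WT, the difference at Jag1 turned to 1.82 kb.

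Jag2 (chromosome 12, 112907803 to 112929812, minus strand) carried the tallest WT peak of all 10 members, and its top AKO peak tied with that of Notch2 at 38 fragments. A pair of peaks flanked its start site in both libraries. The inner WT peak, 112928285 to 112929480 (1196 bp), had a pileup of 38.1 from 60 fragments (45.8 to 77.2), and its AKO partner, 112928504 to 112929387 (884 bp), a pileup of 24.6 from 38 fragments (26.9 to 52.2). The outer WT peak, 112929635 to 112930434 (800 bp), had a pileup of 28.6, and its AKO partner, 112929745 to 112930087 (343 bp), 18.8. Both flanking peaks were thus shorter and lower in AKO, and the intervals of the taller pair overlapped. A WT peak upstream, 112932518 to 112933020 (19 fragments, −log10 q 5.39), had no partner. The other shared region, 112937872 to 112938729 in WT and 112937731 to 112938423 in AKO (34 and 30 fragments), lay over the neighbouring gene Nudt14. In total the window had 3.78 kb in the WT and 1.92 kb in the AKO library, a WT to AKO ratio of 1.97 that stayed under both limits of the rule of size.

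**Figure D3:**
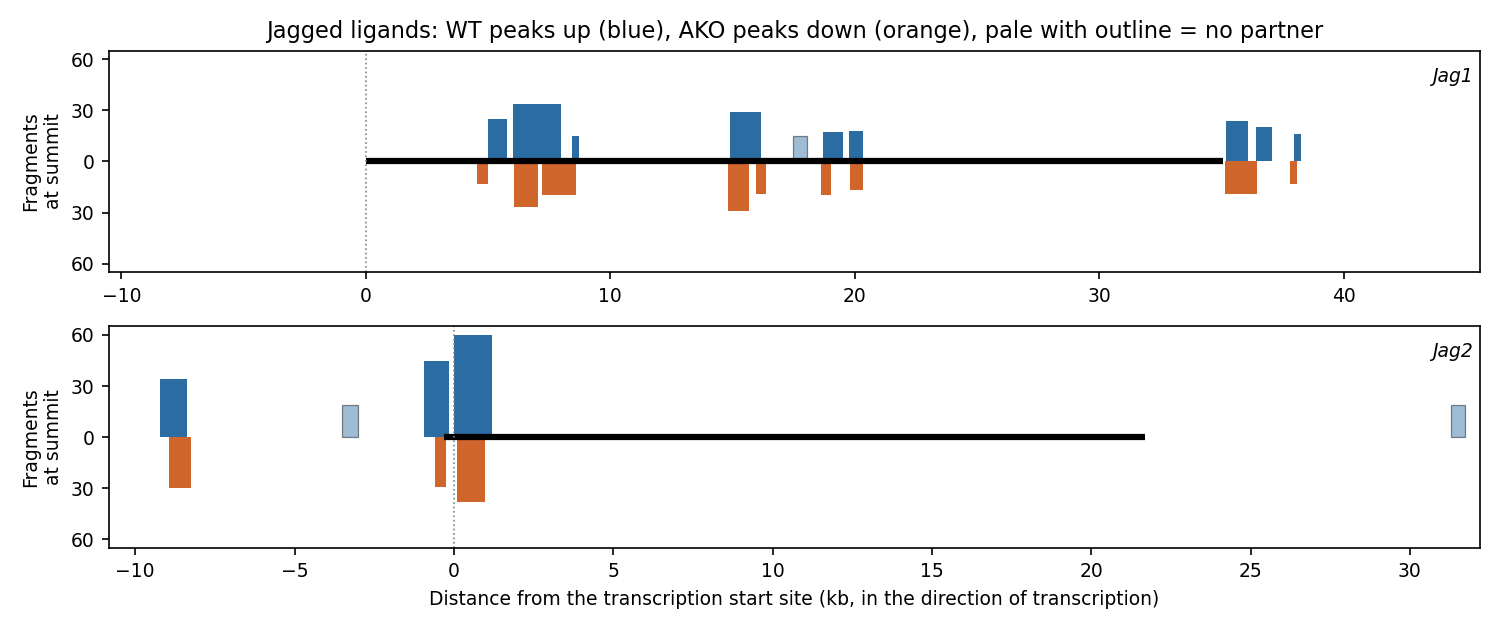
Peaks at Jag1 and Jag2 against the distance from the start site (kb, in the direction of transcription), WT above and AKO below the gene (black bar), with the fragments at the summit as bar height. Of the pair of peaks beside the Jag2 start site, the inner has 60 fragments in WT and 38 in AKO and the outer 45 and 29.

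The Mastermind-like proteins are the coactivators that bind the complex of RBPJ and the Notch intracellular domain. Unlike the receptors, the group had more covered length in AKO (53.7 kb) than in WT (45.6 kb), and this came from Maml2. Of their 95 AKO peaks 42 had no WT partner, 44.2% (34.02 to 54.8), against 23.8% of all AKO peaks. This share too came from Maml2 (34 of 66 peaks), since Maml1 had 3 of 12 (25%) and Maml3 5 of 17 (29.4%). Of their 76 WT peaks 24 had no AKO partner, 31.6% (21.4 to 43.3), against 39.6% of all WT peaks.

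Maml2 (chromosome 9, 13296561 to 13709533, plus strand) had 47 peaks and 24.2 kb in WT and 66 peaks and 35.7 kb in AKO. The excess of 11.5 kb in AKO was exceeded by 1 protein-coding gene, Egfr (17.8 and 30.05 kb), and the excess of 19 peaks by 1, Cdk14 (15 and 36 peaks). These genes were named after their values were seen. More AKO than WT peaks were found at 16.9% of all genes. With a ratio of 1.48 Maml2 did not meet the rule of size. When −log10 q had to reach 5, the excess was 2.19 kb (9.06 and 11.3 kb). The excess in peak number was then gone, with 16 peaks in WT and 14 in AKO. With lists of equal total length Maml2 had no WT peak left against 11.3 kb in AKO and was called higher. That cut was stricter in WT, so the call compares peaks of unlike strength. Its window of 433 kb is among the 387 that exceed 400 kb, of which 99 had more and 256 less covered length in AKO.

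The AKO excess at Maml2 lay in the interior of the gene. In bins of 50 kb from the start site, the bin from 100 to 150 kb had 1 WT peak and 11 AKO peaks, and the bin from 150 to 200 kb had 3 and 12. Over both bins the summed width was 2.03 kb in the WT and 9.71 kb in the AKO library, and 20 of the 23 AKO peaks had no partner. The bin from 50 to 100 kb had no peak in either library. The first 50 kb had 9 peaks in each, with 5.66 and 8.14 kb, and the bin from 200 to 250 kb had 11 and 12 peaks. From 350 to 400 kb the order turned, with 7 WT and 5 AKO peaks and 3.45 and 2.05 kb.

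The AKO peaks without a WT partner at Maml2, 34 of 66, were low. They had 12 to 24 fragments with a median of 15, and their median width was 367.5 bp. A median AKO peak of the whole list had 18 fragments, and the lowest called summit 10, so a site without a called WT peak may still have held some fragments. Of the 34, 4 had a −log10 q of at least 5, and 25 lay over 1 kb from any WT peak. The 4 were 13483658 to 13483995 (22 fragments), 13490361 to 13490984 (19 fragments), 13565134 to 13565831 (23 fragments, −log10 q 7.43, the highest) and 13632527 to 13633359 (24 fragments). Of the WT peaks 15 had no partner, and the strongest of these by −log10 q (6.99) was 13644216 to 13644603 (388 bp, 22 fragments).

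Where both libraries marked Maml2, heights differed in both directions, with AKO to WT ratios from 0.690 to 1.56. The AKO pileup was lower in 15 and higher in 15 of the 30 shared regions, and the median ratio was close to 1. The median over all shared regions of the genome was 0.858. The tallest WT peak, 13669660 to 13670500 (841 bp, pileup 19.7, 31 fragments, 21.1 to 44.0), lay 372 kb from the start site and had an AKO partner of 21 fragments. The tallest AKO peak, 13306752 to 13307992 (1241 bp, pileup 18.8, 29 fragments, 19.4 to 41.6), lay 9.33 kb from the start site and had a WT partner of 715 bp and 19 fragments. At the second Maml2 promoter, 13662210 to 13662509, neither library had a peak, but an AKO peak without a partner (13661230 to 13661773, 14 fragments) lay 687 bp from that start site, where the nearest WT peak was 6297 bp away.

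Maml3 (chromosome 3, 51687320 to 52105319, minus strand), a gene of about the same length, did not share the excess. It had 17 peaks in each library and 12.3 kb in WT against 8.49 kb in AKO, a ratio of 0.689. Of the 11 shared regions 8 had the lower pileup in AKO and 3 the higher. Its tallest WT peak lay 1.61 kb after the start site, 52102471 to 52104131 (1661 bp, pileup 18.4, 29 fragments), and the AKO peak there, 52103315 to 52103694, was 380 bp wide with 18 fragments. A pair of AKO peaks shared the top place, with a pileup of 13.6 from 21 fragments each, at 51779129 to 51779876 (748 bp, 326 kb from the start site) and 51749358 to 51750728 (1371 bp, 355 kb from it). Among the 6 WT peaks without a partner the strongest was 52044733 to 52045682 (950 bp, 21 fragments, −log10 q 6.99). The 5 such AKO peaks had 13 to 18 fragments, the strongest being 51721685 to 51722145 (−log10 q 3.52). With lists of equal total length, a cut that was stricter in WT, the difference at Maml3 turned to 0.405 kb.

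Maml1 (chromosome 11, 50255634 to 50293131, minus strand) was close to equal in the 2 libraries, with 12 peaks in each and 9.12 kb in WT against 9.46 kb in AKO. Beyond its 3′ end lay 4 WT peaks and 3 AKO peaks. The tallest peak of both libraries was the same site 34 kb from the start site, 50257697 to 50259365 in WT (1669 bp, pileup 25.4, 40 fragments, 28.6 to 54.5) and 50257877 to 50259100 in AKO (1224 bp, pileup 20.1, 31 fragments, 21.1 to 44.0). Of the 9 shared regions 4 had the lower pileup in AKO and 5 the higher. Each library had 3 peaks without a partner, the strongest by −log10 q being 50266213 to 50266649 in WT (18 fragments) and 50272671 to 50273073 in AKO (17 fragments). The small difference of 0.337 kb turned to −2.36 kb when −log10 q had to reach 5.

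Rbpj (chromosome 5, 53555779 to 53657445, plus strand) encodes the DNA-binding protein through which all 4 receptors act. It was the most sparsely marked member in WT. A single WT peak, 53602141 to 53602458 (318 bp, pileup 12.07, 19 fragments, 11.4 to 29.7), lay 11.9 kb after the start site. AKO had a lower peak over it, 53602075 to 53602442 (368 bp, pileup 9.71, 15 fragments), and 5 more without a WT partner. These lay at 53563360 to 53563629 (13 fragments), 53597728 to 53598166 (16), 53613948 to 53614371 (13), 53614854 to 53615330 (17) and 53620199 to 53620766 (14). The covered length was 0.318 kb in the WT and 2.55 kb in the AKO library, which the rule of size called higher. The call rests on peaks of 13 to 17 fragments, and no AKO peak at Rbpj had a −log10 q of at least 5, whereas the WT peak reached 6.10. With that limit on the peaks the difference at Rbpj turned to −0.318 kb, and the call was also lost with a fold enrichment of 4 or more (0.727 kb) and with lists of equal total length, which left no peak there.

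**Figure D4:**
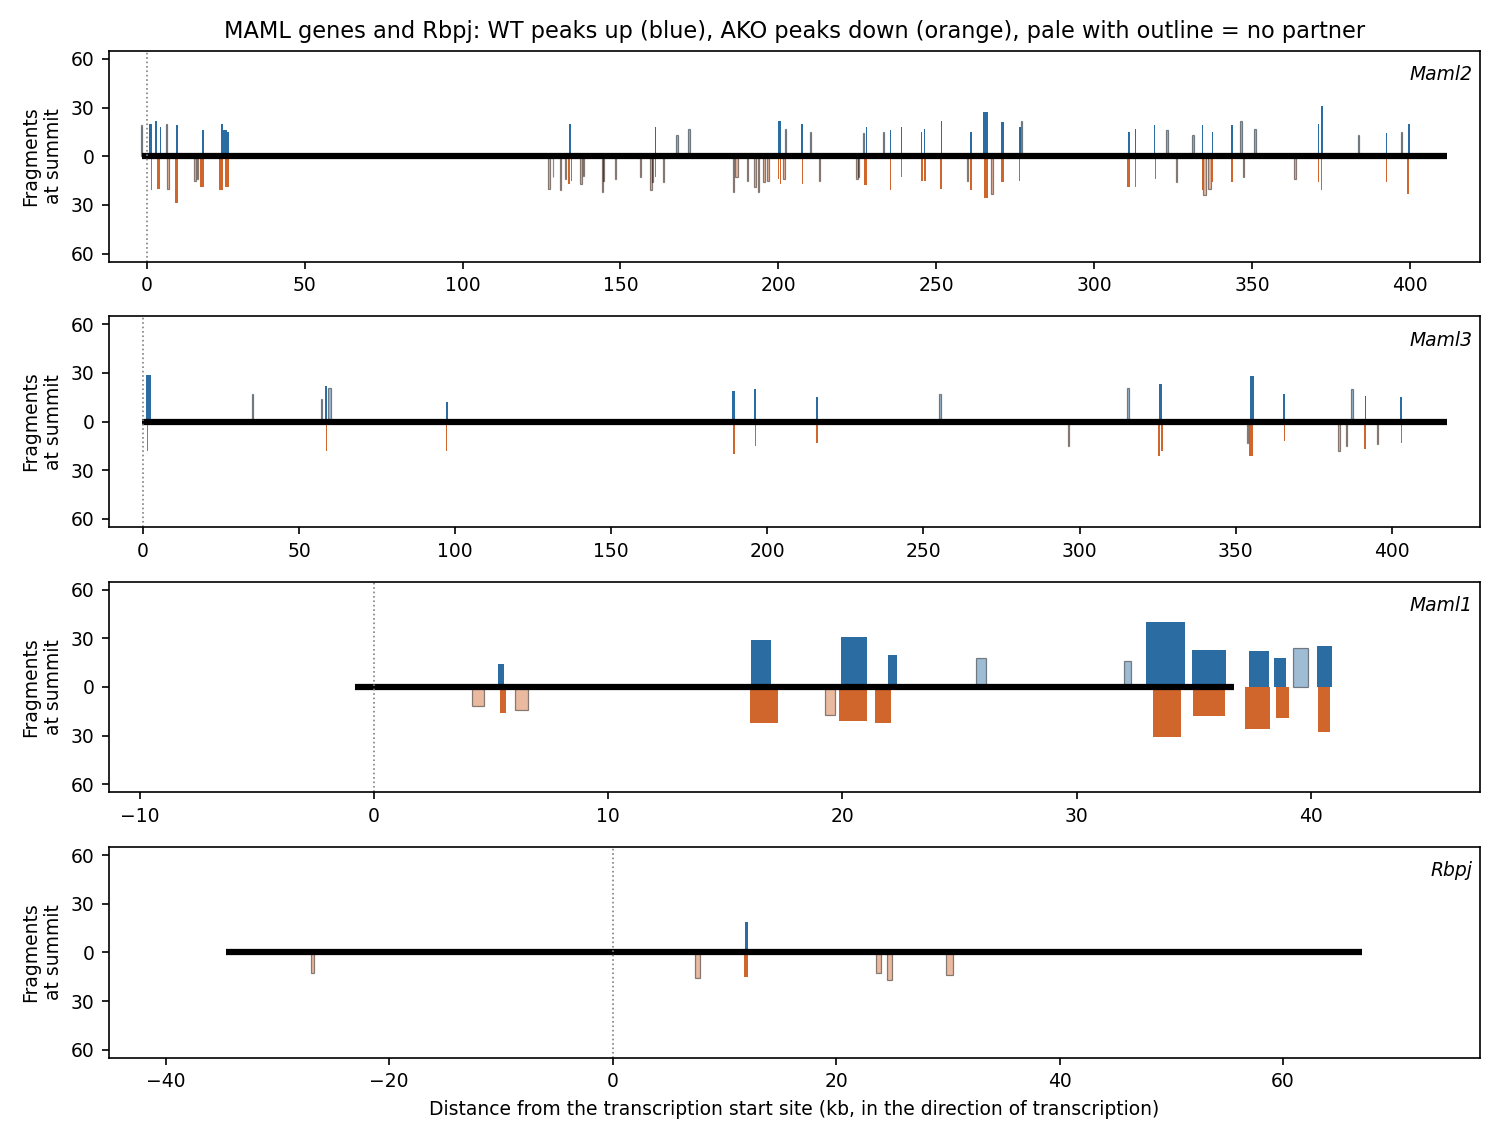
Peaks at Maml2, Maml3, Maml1 and Rbpj against the distance from the start site (kb, in the direction of transcription), WT above and AKO below the gene (black bar), with the fragments at the summit as bar height. Pale outlined bars have no partner and are crowded on the AKO side of Maml2 between 100 and 200 kb, where AKO has 23 peaks and WT has 4.

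Over all members, 46 of the 167 WT peaks had no AKO partner, 27.5% (20.9 to 34.98), where 39.6% of all WT peaks had none. Of the 177 AKO peaks 49 had no WT partner, 27.7% (21.2 to 34.9), where 23.8% of all AKO peaks had none. Without Maml2 the AKO share was 13.5%, 15 of 111 peaks, and the WT share 25.8%. The peaks without a partner were the lower and narrower ones, with a median of 17.5 fragments in WT against 22 for those with a partner, and of 15 against 19 in AKO. Their median widths were 421 and 762 bp in WT and 403 and 551 bp in AKO.

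Merging the lists gave 207 regions over the members, of which 112 were shared by the libraries, 46 held only WT peaks and 49 only AKO peaks. The AKO pileup was the lower in 74 of the 112, 66.1% (56.5 to 74.8), where 71.8% of all shared regions had the lower pileup in AKO. It was at least 1.5-fold lower in 13 and at least 1.5-fold higher in 3, against 15.6% and 1.47% of all shared regions. The median ratio was 0.884 for the members and 0.858 over all shared regions. By group it was 0.856 for the receptors, 0.819 for the ligands and 0.929 for the coactivators. The lowest ratio of any member, 0.530, was at Jag1, and the highest, 1.65, at Notch2. In 11 regions 1 WT peak faced several AKO peaks, and in 6 regions 1 AKO peak faced several WT peaks.

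**Figure D5:**
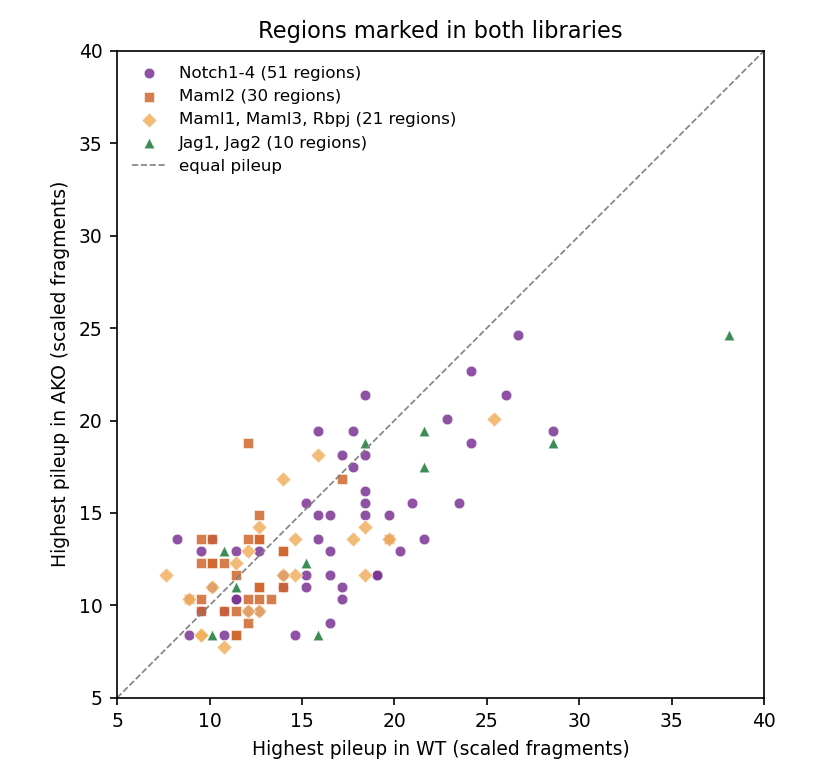
Highest pileup in AKO against highest pileup in WT (both scaled by the authors to the input) for the 112 regions marked in both libraries, by gene group, with the line of equal pileup. Of these points 74 lie below the line, and the farthest from it is the Jag2 region with 38.1 in WT and 24.6 in AKO.

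The position of the window's edge was checked once. In WT 5 peaks and in AKO 2 peaks lay outside the windows within 2 kb of an edge, among them a WT peak of 34 fragments beyond the 3′ side of Jag2 (112893890 to 112895939) and a WT peak of 33 fragments upstream of Notch1 (26515598 to 26517396). Peaks that crossed an edge numbered 4 in WT and 2 in AKO. Wholly inside within 2 kb of an edge lay 1 WT peak, with 34 fragments (Jag2), and 2 AKO peaks, with 24 (Notch4) and 30 (Jag2) fragments.

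The other genes of the pathway, 47 chosen by role, had less covered length in AKO in 33 cases, more in 12 and no peak in either library in 2 (the protease gene Adam10, which makes the first cut of a bound receptor, and Aph1b). Their median difference was −1.21 kb and their summed ratio 0.733, where all genes had −0.18 kb and 0.724. The rule of size called 8 of the 47 lower and none higher, where it called 5.35% of all genes lower. With gene bodies alone it called 2 of the 47 lower, so most of the 8 calls rest on the flanks. The share of all genes called with gene bodies alone was not computed. Peaks over neighbouring genes were not set apart for these 47, so the mark may belong to other genes. Only genes with at least 2 kb in WT can be called lower, and of the 8217 such genes 1158 were. Some of the 47 had less than that, so 8 of 47 and this share have unlike denominators.

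By role, 2 of the 6 other ligand genes were called lower. Dll1, a Delta-like ligand, had 4.15 kb in the WT and 2.07 kb in the AKO library, and Dll3, a Delta-like protein that does not activate receptors on other cells, 5.40 and 2.18 kb. Among the 9 proteases only Psenen, a subunit of the gamma-secretase that frees the intracellular domain, was called lower (4.48 and 1.06 kb). Among the 5 genes that add sugars to the receptor, Lfng (10.75 and 4.52 kb) and Mfng (5.52 and 2.08 kb) were, both Fringe glycosyltransferases that tune which ligand a receptor answers. None of the 11 genes of traffic and turnover was called, and their summed ratio was 0.734. Of the 8 corepressors and cofactors Hdac1, a histone deacetylase, was called lower (4.14 and 1.61 kb).

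The 8 target genes had the lowest summed ratio of the roles, 0.503 (29.7 and 14.97 kb). Called lower were Heyl, a repressor of the Hey family (6.59 and 3.25 kb), and Nrarp, a feedback inhibitor of the pathway (7.65 and 2.59 kb). Hes1, the repressor best known as a Notch target, had 3.56 and 3.64 kb, and Hey2 carried 1.94 kb in WT and no AKO peak. The largest gains among the 47 in kb were at Ncor1, a corepressor gene (0.432 and 1.99 kb), and Dner, which encodes a Notch ligand of neurons (5.37 and 6.84 kb), and neither met the rule of size.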

How the data were processed

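Peaks were used as the authors deposited them, 1 list per ChIP library. The submitters' processing notes list the build mm10 and the tools MACS2 2.2.1, Bowtie2 2.2.5, FastQC 0.11.3 and bcl2fastq. Another version, MACS 2.1.1.20160309, stands in the file headers, with narrow mode with the same input for both libraries, a q-value cutoff of 0.05, 150 bp tags, 1 tag kept per position and no pooling. Narrow mode splits broad H3K4me1 domains. By title the input is the AKO control, while wild type is its labelled genotype. The deposited pileup signal, per the file headers, is scaled to the input's 9537585 tags, and fold enrichment is a ratio to local background. Deposited −log10 p and −log10 q values come from MACS.

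Pileup divided by the scale factor (0.635 for WT, 0.647 for AKO) was whole within 0.01 for every peak, which gave fragments. Windows, overlaps and regions were computed in Python 3.11.15 with numpy 2.4.6, pandas 2.3.3 and scipy 1.17.1, and the interval functions were tested on simulated data. Intervals of shares are Clopper-Pearson 95% and cover counting error only. Gene positions, strands and promoters came from RefSeq tables of GRCm38.p6. Not used were 8 WT and 6 AKO peaks off chromosomes 1 to 19 and X. All members were named, with their tallest peaks, the peaks at the 5′ end and the strongest peaks without a partner. Other pathway genes were named if they met the rule of size or had the largest differences in kb, and others named were chosen after their values were seen. Some values that this rule covers are not reported here. Members and lists were chosen with earlier results of these data known. Alternatives covered stricter peaks, lists cut to equal number or equal covered length, other windows, joined peaks and other partner rules.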

Additional observations from a re-analysis of the deposited data

How the results depend on the processing

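Notch1, Notch3, Notch4, Jag2 and Maml2 kept their direction in covered length under all 7 alternatives (stricter peaks, equal lists, other windows, joined peaks). Notch1 ranged from −14.1 to −2.39 kb (AKO minus WT) and was called lower in 6 of the 7, Maml2 from 2.19 to 18.2 kb. When −log10 q had to reach 5, Maml1 turned to −2.36 kb and Rbpj to −0.318 kb, and with peaks within 1 kb joined Maml1 turned to −0.172 kb. With lists cut to equal covered length, Notch2 turned to 9.74 kb, Maml3 to 0.405 kb and Jag1 to 1.82 kb, and the summed ratio of the members turned to 1.31. That setting keeps the strongest peaks of each list until both reach the same total, 50% of what AKO peaks cover. Its limit on −log10 q is stricter for WT than for AKO peaks, so its values compare peaks of unlike strength. Since it sets the total length of both lists equal, the main ratio of 0.724 over all genes is no background for these turns. The ratio over all genes was not computed in that setting.

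The summed ratio was 0.840 when only peaks of 4-fold enrichment or more were kept, 0.616 when −log10 q had to reach 5, 0.899 with equal numbers of peaks, 0.903 with gene bodies alone, 0.873 with 5 kb on each side and 0.885 with peaks joined. Members with less covered length numbered 4 with equal covered length. Members called lower numbered 3 under the fold enrichment limit, 4 under the q limit, 2 with gene bodies alone and 4 with a ratio of 1.5 and 1 kb. Members called higher numbered 0 in both stricter settings and 2 with equal covered length. Peaks numbered 85 in WT and 56 in AKO under the q limit, 24 and 55 with equal covered length, and 105 and 110 when joined. Without a partner were 54.1% of WT peaks under the q limit, 20.8% of WT and 58.2% of AKO peaks with equal covered length, and 17.4% and 19.2% when a peak within 1 kb counted as a partner. The share of shared regions lower in AKO was 89.5% with equal covered length. Under these settings no share over all peaks or over all shared regions was computed, so these percentages have no background. Other pathway genes called lower numbered 5 under the fold enrichment limit, 4 with equal numbers, 2 with equal covered length, 2 with gene bodies alone, 5 with 5 kb on each side and 16 with a ratio of 1.5 and 1 kb. The share of all genes called was computed in the main setting only, so these counts of members and pathway genes have no background. The causes of these differences were not tested. No paired analysis was possible because each genotype has 1 library, and none could be left out. The lowest called summit had 10 fragments, and lower ones were not detectable at this depth.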
